A study of Homo sapiens with 8 samples.

Results

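Kinesins and dyneins are the motor proteins that walk along microtubules, and the genes described here encode the kinesins, the kinesin light chains, the dynein chains and the dynactin subunits. Members were chosen by symbol: KIF or KIFC with a number, KLC, DYNC1, DYNC2, DYNL or DCTN, with at least 10 counts summed over 8 libraries and pseudogenes left out. The rule gave 59 genes of the 17179 gene symbols with counts. KIF2B also matched, but it had 1 count in all and was left out. KIF18B, KIF20B, KIF21A and KIF24 were not analysed here. The 59 genes comprised 11 mitotic kinesins, 15 transport kinesins, 11 other kinesins, 4 kinesin light chains, 5 chains of dynein-1, 1 chain of dynein-2, 6 dynein light chains and 6 dynactin subunits.

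The values are ribosome footprints, the short stretches of mRNA that a translating ribosome protects from nuclease, counted per gene in 293T cells, an established human embryonic kidney line. Footprint counts change with the amount of an mRNA and with how heavily it is translated, and without RNA libraries from the same cells these cannot be told apart. There were 4 groups of 2 libraries, all of 293T cells with no other genotype named: a control for shRNA (below, shRNA control), an shRNA named shNBD1 that the labels call non-cleaving, a control for inhibitors (inhibitor control), and miRNA inhibitors whose target miRNAs the labels do not name. The labels do not say what NBD1 stands for, what dose or time was used, or whether libraries of 1 group were grown apart, so the p-values speak only of the spread between libraries, which may be technical.

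Kinesins are ATP-driven motors that mostly move towards the plus end of microtubules. Some build and drive the mitotic spindle, and others carry vesicles, mitochondria and mRNA through the interphase cell. Cytoplasmic dynein-1 walks the other way as a complex of heavy, intermediate, light intermediate and light chains, and needs dynactin and an adaptor to move cargo; dynein-2 works inside cilia. In dividing cells the mitotic kinesins are made mainly in the later part of the cell cycle, under promoters that often hold a CCAAT box and a cell cycle homology region, with the core letters TTTGAA, which the DREAM complex binds.

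Library totals ran from 11218980 to 19854218 counts, and the 59 motor genes took between 0.472% and 0.533% of them. Values are given as CPM (counts scaled to a common library size) after TMM scaling, with a log2 fold change, its standard error (SE) and an adjusted p from edgeR's quasi-likelihood test with Benjamini-Hochberg adjustment over 13306 genes. Of the 59 members, 55 passed the filter on low counts, and DYNLRB2, KIF12, KIF19 and KIF25 did not. "Rose" and "fell" are used for an adjusted p under 0.05. KIFC1 was summed over 3 features that stand for copies of 1 gene. KIF4B is a near-identical copy of KIF4A, and its counts were between 22.3% and 27% of those of KIF4A in every library, so both genes' values are uncertain. Of 293T markers, 4 of 6 were in the files and their summed level lay between 3393 and 6498 CPM, most of it VIM, while NEFM and PAX2 stood under 4 CPM. Of 15 markers of other cell types, 8 were under 1 CPM in all libraries, among them PTPRC, ALB and HBB. Others were well above that: EPCAM lay between 85.1 and 140 CPM, COL1A1 between 24.2 and 61.0 CPM and CD68 between 10.6 and 38.5 CPM.

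The mitotic and the transport kinesins differed in the letters of their promoters, and the stretches below show TTTGAA in 5 mitotic kinesins that were higher in the shRNA control than in the inhibitor control, its variant in KIF22, a mitotic kinesin that was not called between the controls, and TTTGAA in the 1 transport kinesin that holds it. Windows of 300 bases ran from 250 before to 50 after a RefSeq start site (GRCh38.p14). They were searched on both strands for TTTGAA, for its variant TTCGAA and for the box CCAAT. Some genes had more than 1 window, and some windows were not at the outer start of the gene. A gene was counted when any of its windows held the motif. A match on the other strand reads TTCAAA for the first of these and ATTGG for the last, and the variant is its own reverse complement. No printed match overlaps another. A window was at hand for 47 of the 59 genes. TTTGAA was found in 8 of 11 mitotic kinesins (KIF11, KIF14, KIF15, KIF18A, KIF23, KIF4A, KIF4B and KIFC1), in 1 of 11 transport kinesins with a window (KIF5B), and in 2 of the 36 motor genes that are not mitotic kinesins (KIF5B and DYNLRB2). In KIF14, KIF4B and KIFC1 the match lay just after the start site and is not printed. Of these, KIFC1 was not called between the controls. Over all RefSeq genes with a window the share was 18.2%. KIF22 held TTCGAA, a variant found in 1.82% of all genes. CCAAT was found in 9 of 11 mitotic and 4 of 11 transport kinesins, against 39.7% of all genes. Capitals mark these motifs; each stretch is printed 5′ to 3′ on the strand of its gene and ends 1 base before the gene start, except that of KIF5B, which runs from 145 to 50 bases before it. The positions are chr10:92593050-92593129 (plus strand) for KIF11, chr3:44761714-44761793 (plus) for KIF15, chr11:28108157-28108236 (minus) for KIF18A, chr15:69414269-69414348 (plus) for KIF23, chrX:70290024-70290103 (plus) for KIF4A, chr16:29790671-29790750 (plus) for KIF22 and chr10:32056475-32056570 (minus) for KIF5B.
KIF11: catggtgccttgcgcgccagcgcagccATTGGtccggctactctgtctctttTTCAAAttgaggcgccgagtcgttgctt
KIF15: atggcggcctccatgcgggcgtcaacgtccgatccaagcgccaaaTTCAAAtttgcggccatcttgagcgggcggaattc
KIF18A: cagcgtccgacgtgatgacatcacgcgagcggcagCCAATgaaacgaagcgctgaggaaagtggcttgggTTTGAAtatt
KIF23: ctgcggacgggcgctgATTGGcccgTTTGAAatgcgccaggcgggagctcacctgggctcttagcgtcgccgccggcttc
KIF4A: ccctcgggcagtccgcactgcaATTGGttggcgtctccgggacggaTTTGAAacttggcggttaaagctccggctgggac
KIF22: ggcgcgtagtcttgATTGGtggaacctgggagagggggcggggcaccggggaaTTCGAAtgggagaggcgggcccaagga
KIF5B: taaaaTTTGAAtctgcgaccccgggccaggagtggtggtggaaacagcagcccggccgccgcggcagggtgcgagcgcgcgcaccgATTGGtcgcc
A match is a run of letters and not a shown binding site.

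The shRNA named shNBD1 was compared with the shRNA control. Of the 55 motor genes tested, 9 rose and 4 fell, which is 23.6%, against 18.3% of all genes tested, so the share was near that of the background. The libraries of the groups did not overlap for 44 of the 55, against 69% of all genes, and 23 had an unadjusted p under 0.05, against 33.2%. The 9 that rose were the transport kinesins KIF5C, KIFC3, KIF3C, KIF13B and KIF1C, the kinesin light chain KLC2, and the dynein light chains DYNLL2, DYNLRB1 and DYNLT3. The 4 that fell were the mitotic kinesins KIF18A, KIF11 and KIF14, and KIF2A. The largest called change was that of KIF5C, at 2.18-fold. The median log2 change of the motor genes was 0.04, and that of all genes tested was 0.00.

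The 13 calls varied in how often they were kept when a library was left out. Such fits have fewer libraries, and in this comparison they called a smaller share of all genes too. With shRNA control replicate 1 left out 2 motor genes were called, with shRNA control replicate 2 left out 4, with shNBD1 replicate 1 left out 6 and with shNBD1 replicate 2 left out 4, all of them among the 13. KIF5C and DYNLL2 were called in every one of these fits. KIF2A was called in all but the fit without shRNA control replicate 1. KIFC3, KIF3C, KIF1C, KLC2, KIF18A, KIF11 and KIF14 were called in none of the 4 fits, with adjusted p-values of up to 0.269 by edgeR. The summed level of the 15 markers of other cell types was 227 and 224 CPM in the shRNA control and 224 CPM in both shNBD1 libraries, but single markers differed: CD68 was at 37.98 and 38.5 against 27.0 and 26.5 CPM, and COL1A1 at 38.8 and 38.3 against 52.1 and 57.2 CPM. The sum of the 293T markers was 3814 and 3858 CPM in the shRNA control against 6235 and 6498 CPM with shNBD1, most of it VIM. The part of these markers in the results was not tested.

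Of the 15 transport kinesins, 5 rose and none fell, against 9.18% of all genes that rose; the median log2 change was 0.14, and 1 or 2 of the 15 were called when a library of this comparison was left out. KIF5C, 1 of 3 heavy chains of conventional kinesin and the one best known from neurons, lies on chromosome 2 (148875227 to 149026759, GRCh38.p14). Its footprints were at 24.0 and 25.9 CPM in the shRNA control against 55.2 and 53.3 CPM with shNBD1 (log2 fold change 1.12, SE 0.09, adjusted p = 3.86e-05 by edgeR). Both shNBD1 libraries lay above both controls, and also above the inhibitor control at 39.9 and 43.2 CPM and the inhibitors at 39.1 and 38.3 CPM.

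The other heavy chains of conventional kinesin were not called. KIF5B, the ubiquitous one, stood at 346 and 336 CPM in the shRNA control against 349 and 331 CPM with shNBD1, and the libraries of the groups overlapped. KIF5A, the other chain best known from neurons, stood at 9.43 and 9.99 CPM in the shRNA control against 9.24 and 8.85 CPM with shNBD1. As a share of the counts of KIF5A, KIF5B and KIF5C together, KIF5C made up 6.34% (95% Wilson interval 5.74 to 7.004) and 6.96% (6.26 to 7.74) in the shRNA control. With shNBD1 the share was 13.3% (12.5 to 14.2) and 13.6% (12.7 to 14.5). In the inhibitor control the share of KIF5C was 12.8% and 13.3%, and with the inhibitors 11.2% and 11.3%, so the shRNA control was the group that stood apart from the other three. These shares are of reads, which also follow the length of each coding sequence, reads that match several KIF5 genes may be split between them, and the intervals cover counting error only.

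KIFC3, a minus-end-directed kinesin known from adherens junctions, was at 5.91 and 5.48 CPM in the shRNA control against 11.9 and 11.8 CPM with shNBD1 (log2 fold change 1.05, SE 0.24, adjusted p = 0.0126 by edgeR). The groups did not overlap. The inhibitor arm was less even for KIFC3, with 6.75 and 8.88 CPM in the inhibitor control and 8.56 and 14.4 CPM with the inhibitors. KIF3C, a motor subunit of kinesin-2, was at 10.2 and 9.25 CPM in the shRNA control against 14.2 and 14.02 CPM with shNBD1 (log2 fold change 0.54, SE 0.12, adjusted p = 0.0106 by edgeR). The kinesin-2 motor subunits KIF3A and KIF3B were not called, with log2 changes of -0.12 and 0.23.

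Of the kinesin-3 family, which carries vesicles and endosomes, KIF13B rose from 27.2 and 27.3 CPM to 35.5 and 37.9 CPM (log2 fold change 0.43, SE 0.09, adjusted p = 0.00923 by edgeR). KIF1C rose from 48.2 and 46.5 CPM to 57.5 and 59.1 CPM (log2 fold change 0.30, SE 0.09, adjusted p = 0.0385 by edgeR). In neither gene did the groups overlap, and the call of KIF1C was lost with DESeq2. KIF13A, the close relative of KIF13B, had the opposite sign without a call, with 35.3 and 32.1 CPM in the shRNA control against 27.8 and 23.8 CPM with shNBD1 (log2 -0.39, adjusted p = 0.053 by edgeR). KIF1A and KIF1B, carriers of synaptic vesicle precursors and of mitochondria, were not called either. KIFC2 had a log2 change of 1.12 with an SE of 0.45 and was not called (adjusted p = 0.11 by edgeR); its level lay between 0.46 and 1.49 CPM over the 8 libraries.

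**Figure D1:**
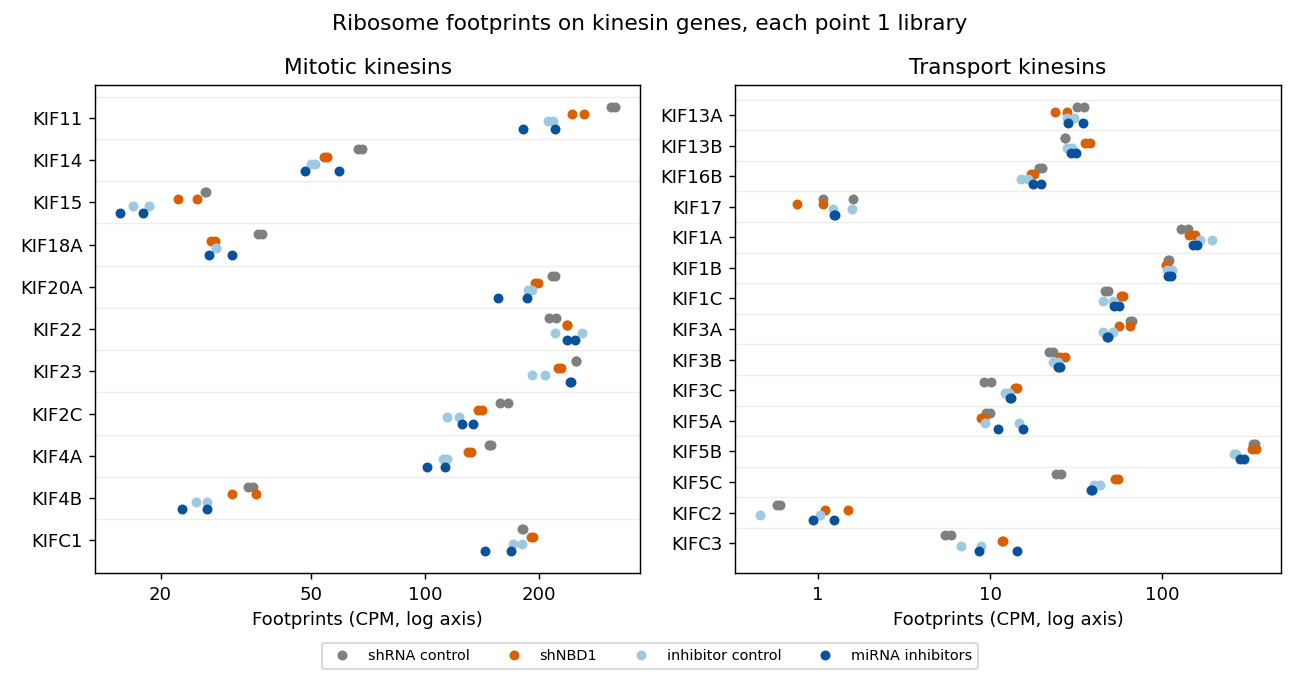
Footprints on 11 mitotic kinesins (left) and 15 transport kinesins (right); the horizontal axis is CPM on a log scale, each point is 1 library and the colour is its group. KIF5C and KIFC3 show the widest gap between shNBD1 and the shRNA control among the called genes, and KIF11 and KIF4A show the shRNA control at the top and the inhibitor arm at the bottom.

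Of the 11 mitotic kinesins, 3 fell and none rose, against 9.15% of all genes that fell. In all, 9 of the 11 had a log2 change below 0 and the median was -0.16. The calls were not kept in fits with a library left out, which called a smaller share of all genes too. KIF18A, which dampens chromosome movements at the metaphase plate, was at 37.1 and 36.1 CPM in the shRNA control against 27.2 and 27.9 CPM with shNBD1 (log2 fold change -0.41, SE 0.09, adjusted p = 0.0138 by edgeR). KIF11, the motor that pushes the spindle poles apart, was at 310 and 318 CPM in the shRNA control against 263 and 245 CPM with shNBD1 (log2 fold change -0.31, SE 0.09, adjusted p = 0.0357 by edgeR). KIF14, which acts in cytokinesis, was at 68.1 and 66.4 CPM in the shRNA control against 55.0 and 53.9 CPM with shNBD1 (log2 fold change -0.31, SE 0.09, adjusted p = 0.047 by edgeR). In these 3 genes both shNBD1 libraries lay below both controls, and the call of KIF14 was also lost with DESeq2.

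Mitotic kinesins that were not called had smaller changes. KIF2C, which removes tubulin from microtubule ends at the centromere, had a log2 change of -0.21 (adjusted p = 0.0611 by edgeR). KIF4A, which shapes the central spindle with PRC1, had -0.18 (adjusted p = 0.105 by edgeR), and KIF23, a subunit of centralspindlin, -0.15 (adjusted p = 0.148 by edgeR). KIF22, a chromosome-arm motor, and KIFC1, a minus-end motor that bundles spindle poles, had log2 changes of 0.12 and 0.08.

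KIF2A, a relative of KIF2C that depolymerises microtubules at spindle poles and in growing neurites, was counted with the other kinesins. It was at 97.9 and 95.3 CPM in the shRNA control against 71.0 and 69.3 CPM with shNBD1 (log2 fold change -0.46, SE 0.07, adjusted p = 0.00266 by edgeR). The remaining 6 libraries lay between 86.5 and 97.9 CPM, all above both shNBD1 libraries. It was the only 1 of the 8 tested other kinesins that was called in this comparison, against 18.3% of all genes. KIF7, a regulator of Hedgehog signalling in cilia, was at 28.8 and 29.7 CPM in the shRNA control against 35.2 and 38.4 CPM with shNBD1 without passing the test (adjusted p = 0.129 by edgeR).

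Among the kinesin light chains, which couple conventional kinesin to cargo, KLC2 rose from 45.9 and 48.1 CPM to 63.9 and 69.5 CPM (log2 fold change 0.51, SE 0.13, adjusted p = 0.0246 by edgeR). KLC2 was uneven with the inhibitors, at 61.7 and 85.9 CPM. KLC1, KLC3 and KLC4 had log2 changes between 0.06 and 0.14 and were not called.

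Of the 5 dynein light chains tested, 3 rose and none fell, against 9.18% of all genes that rose; all 5 had a log2 change above 0, and the median was 0.44. Without shRNA control replicate 1, 1 of the 5 was called, without shRNA control replicate 2 and without shNBD1 replicate 2, 2 were called, and without shNBD1 replicate 1, 3 were called. DYNLL2, a light chain of the LC8 kind that also serves as a hub for many other proteins, was at 45.6 and 45.5 CPM in the shRNA control against 64.9 and 63.4 CPM with shNBD1 (log2 fold change 0.49, SE 0.08, adjusted p = 0.00204 by edgeR). DYNLRB1, a roadblock light chain, was at 50.1 and 48.0 CPM in the shRNA control against 68.0 and 65.3 CPM with shNBD1 (log2 fold change 0.44, SE 0.08, adjusted p = 0.00438 by edgeR). DYNLT3, a Tctex-type light chain, was at 37.9 and 45.6 CPM in the shRNA control against 57.5 and 62.1 CPM with shNBD1 (log2 fold change 0.52, SE 0.10, adjusted p = 0.00645 by edgeR). In all 3 genes the shNBD1 libraries lay above both controls.

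The close relatives DYNLL1 and DYNLT1 were not called, with log2 changes of 0.13 and 0.08. The chains that form the dynein-1 core were not called either: 0 of 5 by edgeR, 1 of them with an unadjusted p under 0.05 (DYNC1LI2, log2 0.21, adjusted p = 0.0853). DYNC1H1, the heavy chain that carries the motor, was at 828 and 836 CPM in the shRNA control against 931 and 928 CPM with shNBD1 without passing the test (log2 0.16, SE 0.10, adjusted p = 0.302 by edgeR). Of the 6 DCTN genes, which encode dynactin, 0 were called by edgeR, and 1 had an unadjusted p under 0.05 (DCTN3, log2 -0.21, adjusted p = 0.0682). Over all genes tested, 18.3% were called and 33.2% had an unadjusted p under 0.05. Sets of 5 or 6 genes are too small to be set apart from these shares.

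**Figure D2:**
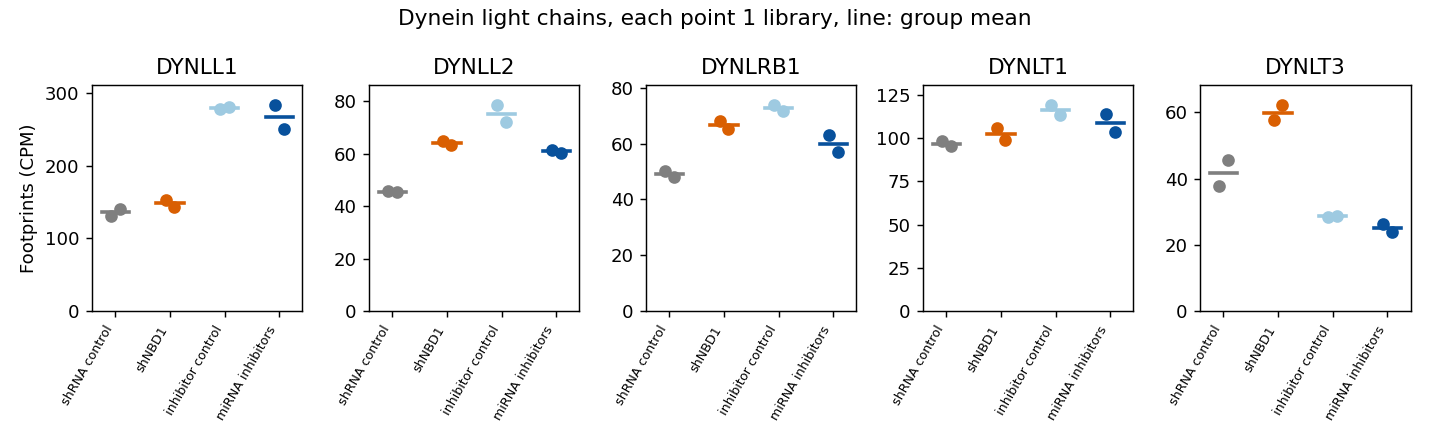
Footprints on the 5 tested dynein light chains; the vertical axis is CPM from 0, each point is 1 library and the line is the mean of its group. DYNLL2 and DYNLRB1 stand lowest in the shRNA control, DYNLT3 stands highest with shNBD1, and DYNLL1 separates the arms, with the shRNA arm between 131 and 153 CPM and the inhibitor arm between 250 and 283 CPM.

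Genes that work with these motors were read from 4 lists, whose counts stand against the 18.3% of all genes that were called, 9.18% higher and 9.15% lower. Of the 6 dynactin core subunits that are not named DCTN, 1 fell: CAPZA1, a subunit of the capping protein that ends the dynactin filament and also caps actin filaments, went from 126 and 125 CPM to 54.0 and 52.9 CPM (log2 fold change -1.23, SE 0.07, adjusted p = 1.59e-05 by edgeR). Of 16 tested dynein regulators and adaptors, 2 rose and 1 fell. BICD2, an adaptor for Golgi vesicles and nuclear pores, rose by 0.50 on the log2 scale (SE 0.08), NINL, a centrosomal adaptor, by 0.72 (SE 0.17), and SPDL1, the kinetochore adaptor Spindly, fell by 0.56 (SE 0.08). The calls of CAPZA1 and SPDL1 held whichever library of this comparison was left out, that of BICD2 was lost without shRNA control replicate 1, and that of NINL was lost in 3 of the 4 such fits.

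Of 15 kinesin cargo adaptors, 2 rose and 3 fell. MAPK8IP3 (JIP3), which links kinesin-1 and dynein to vesicles, was at 3.05 and 2.46 CPM in the shRNA control against 8.68 and 9.87 CPM with shNBD1 (log2 fold change 1.74, SE 0.26, adjusted p = 0.00189 by edgeR). KIFBP, which binds the motor domains of some kinesins and keeps them off microtubules, was at 120 and 131 CPM in the shRNA control against 77.2 and 75.7 CPM with shNBD1 (log2 fold change -0.72, SE 0.07, adjusted p = 0.000237 by edgeR). In both genes the groups did not overlap. MAPK8IP2 rose by 0.42 on the log2 scale, a call lost without shRNA control replicate 1 or shNBD1 replicate 2, and KIDINS220, a membrane scaffold, fell by 0.29, a call lost in each of the 4 fits with a library left out.

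Of 19 tested partners of the mitotic kinesins, 1 rose and 2 fell, together 15.8%, against 18.3% of all genes. AURKB, the kinase of the chromosomal passenger complex, rose by 0.61 on the log2 scale (SE 0.08, adjusted p = 0.00106 by edgeR), and CENPE, a kinetochore motor of the kinesin-7 family whose symbol is outside the rule, fell by 0.40 (SE 0.09, adjusted p = 0.0142 by edgeR). TOP2A, which untangles chromosomes before they part, fell by 0.47. The call of CENPE was lost in each of the 4 fits with a library left out, and those of AURKB and TOP2A were kept. The median over the list was -0.13, and AURKB thus moved against most of its list.

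The miRNA inhibitors were compared with the inhibitor control. None of the 55 motor genes tested was called by edgeR, against 0.12% of all genes, and none by DESeq2, which gave no adjusted p for 13 of them. At an unadjusted p under 0.05 there were 8 motor genes, and 16.4% of all genes tested passed the same threshold. The libraries of the groups did not overlap for 22 of the 55, against 40.8% of all genes. The lowest adjusted p was 0.121 by edgeR. Same-numbered libraries of this arm deviated together (r = 0.61), and an edgeR fit with a replicate block called 14 of the 55, against 19% of all genes. DYNLL2 and DYNLRB1 were among them. The labels do not say that the numbers pair the libraries, so which fit applies was not settled. Leaving out libraries changed the count: motor genes were called without miRNA inhibitors replicate 1 and without inhibitor control replicate 2. In these fits a larger share of all genes was called too. The summed level of the 15 markers of other cell types was 133 and 171 CPM in the inhibitor control and 174 and 205 CPM under the inhibitors, and its part was not tested.

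KIF23, which bundles the central spindle with RACGAP1, was at 191 and 207 CPM in the inhibitor control and 242 and 242 CPM with the inhibitors (log2 0.28, SE 0.07, adjusted p = 0.121 by edgeR). DYNLL2 was at 78.3 and 71.9 CPM in the inhibitor control and 61.4 and 60.2 CPM with the inhibitors (log2 -0.30, SE 0.07, adjusted p = 0.121 by edgeR). DYNLRB1 was at 73.7 and 71.8 CPM in the inhibitor control and 63.1 and 56.8 CPM with the inhibitors (log2 -0.28, SE 0.08, adjusted p = 0.148 by edgeR). In these 3 genes the groups did not overlap, but none passed the test; KIF23 and DYNLL2 passed it without inhibitor control replicate 2, and DYNLRB1 without miRNA inhibitors replicate 1.

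Other members with an unadjusted p under 0.05 were DYNC2LI1 (log2 -0.32), DYNC1LI2 (0.20), KIF1A (-0.21), DCTN3 (-0.16) and KIFC3 (0.52). DYNC1H1 showed the spread within the inhibitor arm, with 594 and 661 CPM in the inhibitor control and 635 and 811 CPM with the inhibitors. Of the lists of partners, 1 gene was called: MAPK8IP2 (JIP2), an adaptor of conventional kinesin, went from 72.5 and 81.8 CPM to 54.1 and 51.8 CPM (log2 fold change -0.54, SE 0.08, adjusted p = 0.0396 by edgeR). That call was lost without miRNA inhibitors replicate 2 and in a fit of the inhibitor arm alone.

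**Figure D3:**
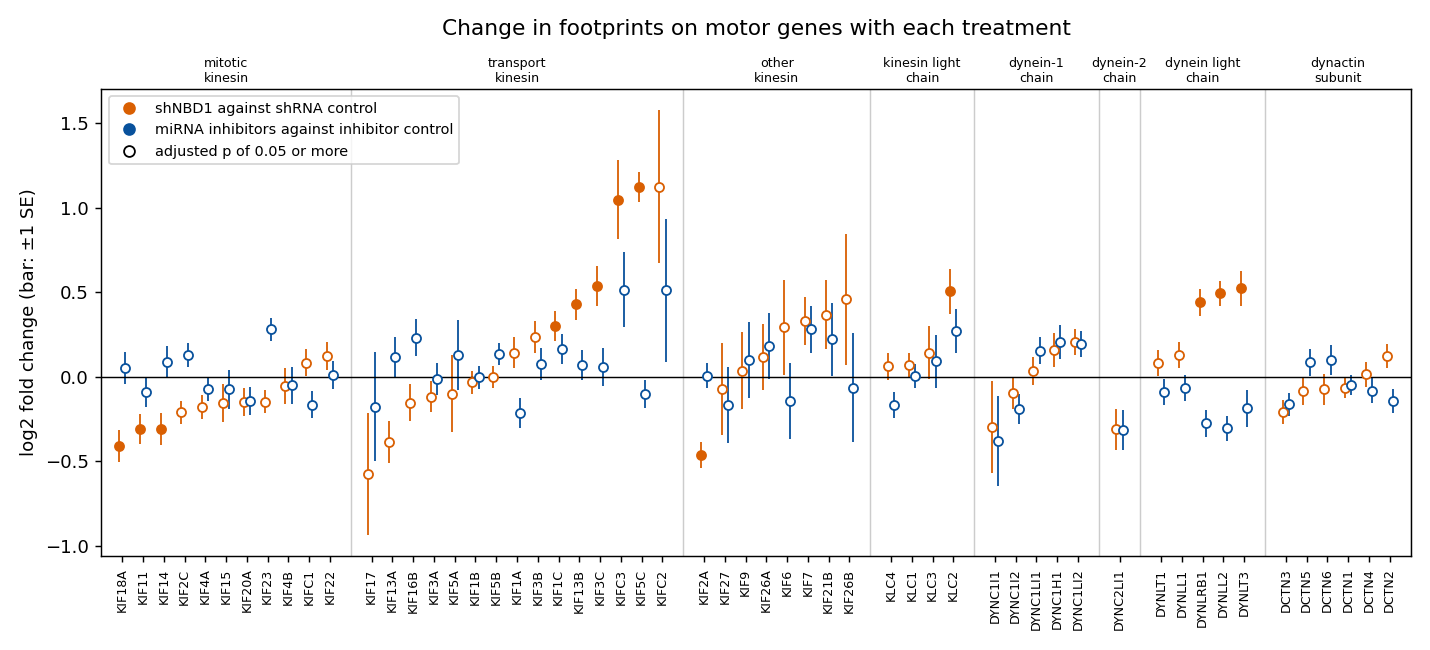
Log2 fold change of the 55 tested motor genes with shNBD1 against its control (orange) and with the inhibitors against theirs (blue), by role; bars are 1 SE and filled points have an adjusted p under 0.05. Filled points are all orange: 5 transport kinesins, KLC2 and 3 dynein light chains above 0, and 3 mitotic kinesins and KIF2A below 0.

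Whether the treatments moved a gene differently was tested as the difference between their log2 changes. Each change was taken against the control of its own arm, so a difference between the controls enters it. Of the 55 motor genes, 6 differed, or 10.9%, against 7.44% of all genes tested; 4 differences were above 0 and 2 below, against 3.48% and 3.96% of all genes. The shNBD1 change was the higher one for KIF5C by 1.22 (SE 0.12, adjusted p = 0.000495 by edgeR), for DYNLL2 by 0.80 (SE 0.11, adjusted p = 0.00242), for DYNLRB1 by 0.72 (SE 0.11, adjusted p = 0.00474) and for DYNLT3 by 0.71 (SE 0.15, adjusted p = 0.0195). It was the lower one for KIF2A (-0.47, SE 0.10, adjusted p = 0.0246 by edgeR) and for KIF23 (-0.43, SE 0.09, adjusted p = 0.0218). KIF5C, DYNLL2 and DYNLRB1 kept this call whichever of the 8 libraries was left out. The count of called motor genes changed with the library left out, and so did the share of all genes called. For KIF18A, KIF11, KIF14, KIFC3, KIF3C, KIF13B, KIF1C and KLC2, which were called with shNBD1, the difference between the treatments did not pass the test.

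Among the genes that work with the motors, the difference was tested in the same way, and its counts stand against the same 7.44% of all genes. It passed for 1 of 6 dynactin core subunits, CAPZA1 (log2 -1.35), for 2 of 16 dynein regulators and adaptors, NINL (1.14) and SPDL1 (-0.68), and for 3 of 15 cargo adaptors. These 3 were MAPK8IP3 (1.38), MAPK8IP2 (0.96), which rose with shNBD1 and fell with the inhibitors, and KIFBP (-0.73). Of the partners of the mitotic kinesins, AURKB (0.66), CENPE (-0.53) and TOP2A (-0.44) passed. CAPZA1, MAPK8IP2 and KIFBP kept the call whichever of the 8 libraries was left out, and the other six lost it in at least 2 such fits.

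The shRNA control was then compared with the inhibitor control. The groups differ in the arm and in the control RNA, and these cannot be told apart; the comparison shares its libraries with both treatment comparisons, so agreement or opposition with them is not an independent result. Of the 55 motor genes, 12 were higher in the shRNA control and 12 lower, together 43.6%, against 27.1% of all genes tested. The libraries of the controls did not overlap for 38 of the 55, against 67.1% of all genes. With either shRNA control library left out fewer motor genes were called, all of them among the 24, and a smaller share of all genes was called too.

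Of the 11 mitotic kinesins, 8 were higher in the shRNA control and none lower, against 13.5% of all genes that were higher. The median log2 difference of the 11 was 0.40, and that of all genes tested was near 0 (-0.003). The counts were 8 higher and 0 lower under each of 3 other scalings as well (DESeq2, RLE and upper-quartile size factors), while 3 were higher without shRNA control replicate 1, 4 without shRNA control replicate 2, and 7 higher with 1 lower without inhibitor control replicate 1. KIF11 was at 310 and 318 CPM in the shRNA control and 218 and 211 CPM in the inhibitor control (log2 0.55, SE 0.09, adjusted p = 0.00181 by edgeR). KIF15, a second plus-end motor of the spindle, was at 26.4 and 26.3 CPM in the shRNA control and 18.6 and 16.9 CPM in the inhibitor control (log2 0.57, SE 0.11, adjusted p = 0.0045 by edgeR). KIF2C was at 165 and 158 CPM in the shRNA control and 115 and 123 CPM in the inhibitor control (log2 0.45, SE 0.07, adjusted p = 0.00157 by edgeR). In these 3 genes both shRNA controls lay above both inhibitor controls.

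The other mitotic kinesins that were higher were KIF4B (log2 0.43), KIF14 (0.41), KIF4A (0.40), KIF18A (0.39) and KIF23 (0.33). KIF20A, which carries the passenger complex to the central spindle, KIFC1 and KIF22 were not called. Of the 8 that were called, 7 hold TTTGAA in the window described above, KIF2C being the exception. The near-identical copies KIF4A and KIF4B are counted here as separate genes. Of the 3 that were not called, 1 holds TTTGAA (KIFC1), and KIF22 holds the variant TTCGAA. Among 19 tested partners of the mitotic kinesins, 9 were higher in the shRNA control and none lower, against 13.5% of all genes that were higher, with a median of 0.27; CENPE (0.59), CDK1 (0.53), TPX2 (0.47) and TOP2A (0.44) had the smallest p-values, and these 4 were called whichever control library was left out. Of the 15 tested partners with a promoter window, 11 held TTTGAA. Among these, NUSAP1, BUB1B, CDK1, TOP2A and MKI67 were higher in the shRNA control, while PRC1, INCENP, CDCA8, PLK1, HMMR and ANLN were not called. BUB1, which was higher, held the variant TTCGAA. Whether the motif goes with the calls was not tested. The summed level of the 15 markers of other cell types also differed between the controls, at 227 and 224 CPM in the shRNA control and 133 and 171 CPM in the inhibitor control. EPCAM was at 140 and 137 against 85.1 and 100 CPM, and CD68 at 37.98 and 38.5 against 11.7 and 15.1 CPM. The part of these markers in these results was not tested.

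All 5 tested dynein light chains were called between the controls, 4 lower and 1 higher in the shRNA control, against 13.6% of all genes that were lower and 13.5% that were higher. DYNLL1, the LC8 chain with the larger difference, lies on chromosome 12 (120469842 to 120498493) and was at 131 and 140 CPM in the shRNA control and 278 and 280 CPM in the inhibitor control (log2 -1.04, SE 0.08, adjusted p = 2.71e-05 by edgeR). DYNLL2 was at 45.6 and 45.5 CPM against 78.3 and 71.9 CPM (log2 -0.72, SE 0.07, adjusted p = 0.000162 by edgeR). DYNLRB1 was at 50.1 and 48.0 CPM against 73.7 and 71.8 CPM (log2 -0.57, SE 0.08, adjusted p = 0.000742 by edgeR). DYNLT1 was lower by a smaller amount (log2 -0.26), and DYNLT3 was higher, at 37.9 and 45.6 CPM against 28.5 and 28.7 CPM (log2 0.54, SE 0.10, adjusted p = 0.00432 by edgeR). DYNLL2 and DYNLRB1 with shNBD1 thus lay between the shRNA control and the inhibitor control, while DYNLL1 with shNBD1, at 153 and 144 CPM, lay near the shRNA control and DYNLT3 with shNBD1, at 57.5 and 62.1 CPM, above both controls.

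Of the 15 transport kinesins, 2 were higher and 3 lower in the shRNA control, together 33.3%, against 27.1% of all genes tested, so the share was near that of the background. KIF5C was at 24.0 and 25.9 CPM in the shRNA control and 39.9 and 43.2 CPM in the inhibitor control (log2 -0.74, SE 0.09, adjusted p = 0.000296 by edgeR), while KIF5B was higher (346 and 336 against 262 and 268 CPM, log2 0.36, adjusted p = 0.00306 by edgeR). KIF3A was higher (0.43) and its partner KIF3C lower (-0.37), and KIF1A, a neuronal vesicle motor, was lower (-0.42). Of the other kinesins, the low-level genes KIF6 (-1.05) and KIF27 (-0.72) were lower in the shRNA control.

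DYNC1H1 was at 828 and 836 CPM in the shRNA control and 594 and 661 CPM in the inhibitor control (log2 0.41, SE 0.10, adjusted p = 0.015 by edgeR). It was the only called member of the 5 dynein-1 chains, against 27.1% of all genes that were called. KLC4 (-0.31), DCTN2 (-0.33) and DCTN3 (-0.29) were lower in the shRNA control. The calls of DYNLL1, DYNLL2, DYNLRB1, KIF11, KIF2C, KIF4A and KIF5C held when any 1 of the 4 control libraries was left out, and the other 17 were lost in at least 1 such fit.

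Of the lists of genes that work with the motors, 1 dynactin core subunit of 6 was higher and 2 lower in the shRNA control, 1 dynein regulator or adaptor of 16 higher and 3 lower, and 3 cargo adaptors of 15 higher and 4 lower, against 27.1% of all genes that were called. ACTR1A (log2 0.27), SPDL1 (0.34) and KIFBP (0.27) were among those higher, and CAPZA1 (-0.29) was among those lower. FEZ1, a kinesin-1 adaptor of axons, was at 7.17 and 6.79 CPM in the shRNA control and 18.5 and 12.4 CPM in the inhibitor control (log2 -1.14, SE 0.21, adjusted p = 0.00349 by edgeR). BICD2 (-0.55) and NUMA1 (-0.40), which ties dynein to the cell cortex in mitosis, were also lower. These 3 calls held whichever control library was left out, and those of MAPK8IP1 (-1.08) and MAPK8IP3 (-0.95) were lost in 3 of 4 such fits.

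**Figure D4:**
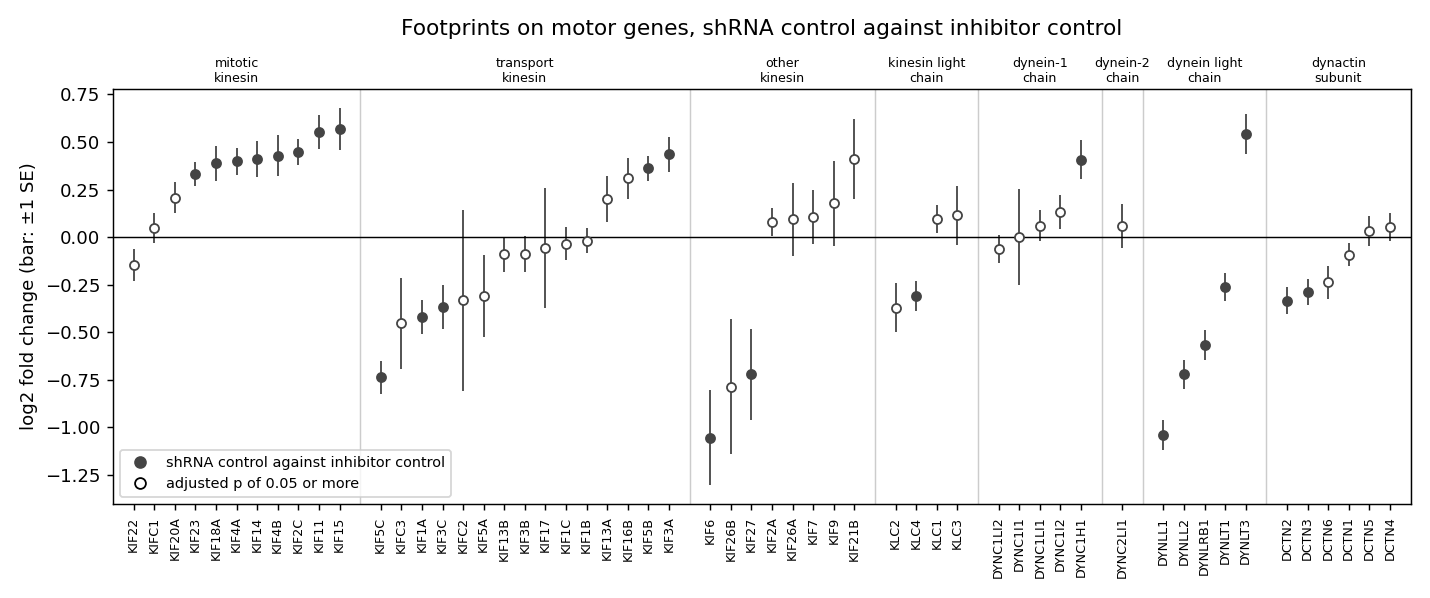
Log2 fold change of the 55 tested motor genes in the shRNA control against the inhibitor control, by role; bars are 1 SE and filled points have an adjusted p under 0.05. The plot has 8 of 11 mitotic kinesins filled and above 0, and 4 of 5 dynein light chains filled and below 0.

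The mitotic and transport classes were also summed in each library, as a description with no test, since a sum over chosen genes follows the choice. For the 11 mitotic kinesins the sums were 1656 and 1659 CPM (shRNA control), 1537 and 1495 CPM (shNBD1), 1340 and 1405 CPM (inhibitor control) and 1434 and 1313 CPM (inhibitors). For the 15 transport kinesins they were 853 and 851 CPM (shRNA control), 921 and 902 CPM (shNBD1), 809 and 843 CPM (inhibitor control) and 845 and 843 CPM (inhibitors). The log2 ratio of the sums was 0.96 in both shRNA controls, 0.74 and 0.73 for shNBD1, 0.73 and 0.74 for the inhibitor control, and 0.76 and 0.64 for the inhibitors. The shRNA control thus stood above the other 6 libraries, and shNBD1 and the inhibitor control overlapped. With shNBD1 the mitotic sum was lower and the transport sum higher than in the shRNA control, while between the controls the mitotic sum differed and the transport sums lay between 809 and 853 CPM.

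**Figure D5:**
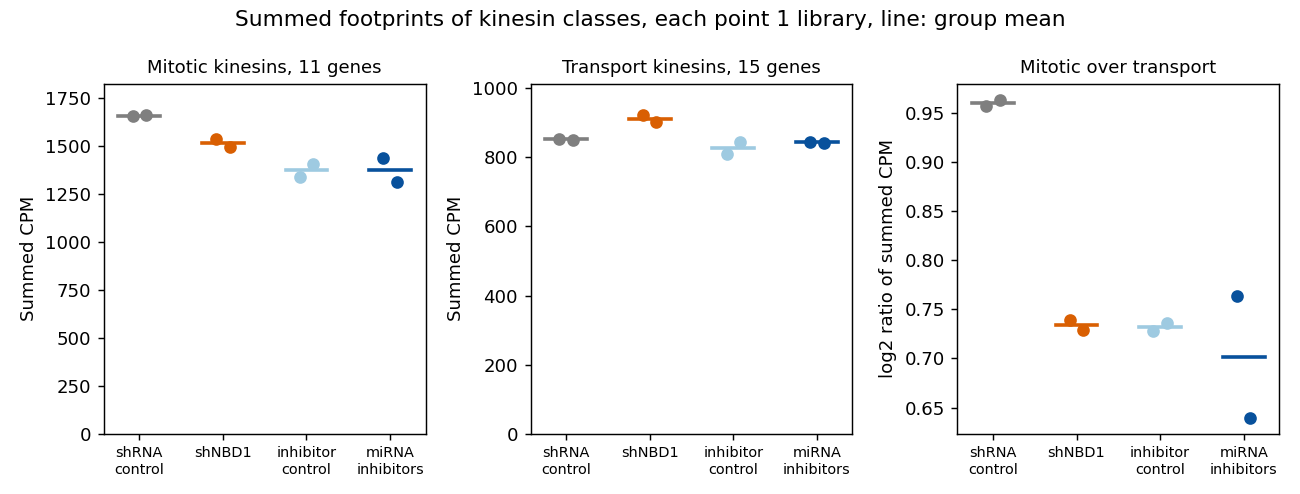
Summed CPM of the mitotic kinesins (left) and the transport kinesins (middle), with axes from 0, and the log2 ratio of the sums (right, axis not from 0); each point is 1 library and the line is the mean of its group. The ratio is 0.96 in the shRNA control and between 0.64 and 0.76 in the other 6 libraries.

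Several subunits of these motors carry symbols outside the rule. KIFAP3, the cargo-binding subunit of kinesin-2, and the dynein-2 subunits listed as WDR34, WDR60 and TCTEX1D2 were not called with shNBD1, with the inhibitors or for the difference between them. Between the controls WDR34 (log2 -0.34, adjusted p = 0.0135 by edgeR) and TCTEX1D2 (-0.80, adjusted p = 0.0332) were lower in the shRNA control. DYNC2LI1 was the 1 dynein-2 chain that the rule found among the symbols with counts. The dynein-2 heavy chain DYNC2H1 was not among them and was not analysed here. DYNC2LI1 ran from 26.3 to 38.6 CPM over the 8 libraries and was called in none of the comparisons.

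The remaining members were called in none of the comparisons. KIF25 had 18 counts in all libraries together, DYNLRB2 35, KIF12 37 and KIF19 44, and no test was made on them. KIF17, a kinesin of neuronal dendrites, lay between 0.749 and 1.59 CPM, and DYNC1I1, an intermediate chain best known from neurons, between 1.89 and 3.73 CPM. DCTN1, the p150 subunit that holds dynactin to the microtubule, lay between 286 and 324 CPM in the 8 libraries, and DCTN4, a subunit of the pointed end of its filament, between 145 and 171 CPM.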

How the data were processed

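The submitters' processing notes name cutadapt, Bowtie and GRCh38. Versions, the counting tool and the handling of reads that match more than 1 gene were not given in the sources used. Per the labels' protocols, cells were lysed with cycloheximide and libraries made with a modified TruSeq kit. The authors deposited whole-number counts per feature, not normalized, per the labels and the values; features of 1 symbol were summed, and a feature not listed was taken as 0. Low genes were removed with filterByExpr (minimum count 10, minimum total 15), scaled by TMM and tested with edgeR 4.0.16 (limma 3.58.1, R 4.3.3) over all 8 libraries with 4 groups, 4 residual degrees of freedom and a threshold of 0.05 over 13306 genes; the SE is the one implied by the test. The test was checked on simulated data. DESeq2 1.42.0, other scalings and filters, single features, a replicate block and each library left out were alternatives. Members and lists were chosen with earlier results of these data known. Named genes are all called members, up to 3 uncalled members of each role by smallest p, and of each partner list at most 4 called genes per comparison; other members named as relatives of these were chosen after their values were seen. Coding lengths were not used here, so shares of reads between genes and ratios of class sums are read only across libraries and say nothing of which gene is the more abundant. Promoters are RefSeq windows of GRCh38.p14.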

Additional observations from a re-analysis of the deposited data

Results flagged for a closer look

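For the 6 motor genes listed here the log2 change with shNBD1 differed from that with the inhibitors, each against its own control. The test was that of the difference (edgeR's quasi-likelihood test, adjusted over all genes tested). The difference in log2 change was 1.22 for KIF5C, 0.80 for DYNLL2, 0.72 for DYNLRB1, 0.71 for DYNLT3, -0.47 for KIF2A and -0.43 for KIF23. For DYNLL2 and DYNLRB1 the libraries rose from 45.6 and 45.5 to 64.9 and 63.4 CPM, and from 50.1 and 48.0 to 68.0 and 65.3 CPM, with shNBD1, while with the inhibitors they stood below their control in both libraries. For KIF23 the values with the inhibitors, 242 and 242 CPM, were above those of the inhibitor control, and those with shNBD1, 229 and 225 CPM, were below the shRNA control at 251 CPM in both libraries. Neither treatment passed the test for KIF23 alone. For KIF5C, DYNLL2, DYNLRB1 and KIF23 the treated groups lay closer together than their controls did, and for DYNLT3 and KIF2A further apart. DYNLL2 had means of 64.1 CPM with shNBD1 and 60.8 CPM with the inhibitors, against 45.5 and 75.1 CPM in their controls. The calls of DYNLT3, KIF2A and KIF23 were lost in some fits with a library left out.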

How the results depend on the processing

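With shNBD1, 13 motor genes were called, and between 11 and 14 with DESeq2, other size factors, other filters, 1 feature per symbol or without ZNF354B and ST8SIA1. In a fit of the 4 libraries of this comparison alone there were 29, the 13 among them, while over all genes 2725 were higher and 2589 lower, against 1222 and 1218. Same-numbered libraries deviated together in the inhibitor arm (r = 0.61 over 10909 genes) and not in the shRNA arm (r = 0.04). The labels do not say that a number marks a shared culture or batch, and each arm has 1 such correlation, so whether the numbers pair the samples was not settled; a fit with a replicate block gave counts of 26 with shNBD1, 14 with the inhibitors, 16 for the difference and 32 between the controls. Leaving out 1 library gave between 2 and 6 calls with shNBD1, between 0 and 6 with the inhibitors, between 3 and 11 for the difference and between 8 and 22 between the controls; such fits have fewer libraries, and over all genes they called between 3.92% and 7.52%, 0.0295% and 6.86%, 1.38% and 8.38%, and 7.94% and 23.6%. With the block, 37.6%, 19%, 25.5% and 46.3% of all genes were called. DESeq2 called 12.8% with shNBD1, 0.887% with the inhibitors and 18% between the controls, and the fit with no filter 1.04% with the inhibitors. An alternative chosen after seeing the data set inhibitor control replicate 2 against miRNA inhibitors replicate 1. It left 1 library in each group of that arm, so its calls are not counted here. The difference for DYNC1H1 was 0.22 in that fit, against -0.05 with all libraries, and the cause was not tested. For the log2 ratio of mitotic to transport sums neither alternative could give another value, since library scaling cancels in the ratio and none of the 26 genes had a mean under 10 counts. KIFC2 and KIF17, near 1 CPM, had SEs of 0.45 and 0.36 with shNBD1, and their log2 changes of 1.12 and -0.57 were not called, so even changes larger than the SE could be missed at this depth.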
